A study of Arabidopsis thaliana with 12 samples.

Results

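The CBF regulon was followed through 9 genes of Arabidopsis thaliana, named by their identifiers, out of 19721 distinct loci in the deposited gene tables. The CBF factors were CBF1 (AT4G25490), CBF2 (AT4G25470) and CBF3 (AT4G25480), also called DREB1B, DREB1C and DREB1A. Their 6 cold-regulated targets were COR15A (AT2G42540), COR15B (AT2G42530), KIN1 (AT5G15960), KIN2 (AT5G15970), RD29A (AT5G52310, also LTI78) and COR413IM1 (AT1G29395). The genes were measured in bulked seedlings of ecotype Col-0 background in 4 groups of 3 samples, 12 in all: the mutant rbm25-1 with abscisic acid (ABA), wild type (WT) with ABA, rbm25-1 untreated and WT untreated. RBM25 (AT1G60200) encodes an RNA-binding protein of pre-mRNA splicing, and ABA is the plant hormone of drought and seed dormancy. All groups were 2 weeks old, came from seeds stratified for 4 days in the cold, and grew at 21 °C with 16 h of light, so none was cold-treated at harvest. ABA was given as a spray at 0.1 mM for 6 h, while for untreated seedlings the labels give no treatment and name no mock spray. What kind of lesion rbm25-1 carries, and whether the 3 samples of a group came from separate cultures, is not stated in the labels, so the authors' p-values may measure a technical spread.

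The CBF proteins are transcription factors of the AP2/ERF family that bind the C-repeat or dehydration-responsive element (CRT/DRE), whose core is CCGAC, and they are transiently induced when plants meet low temperature. The cold-regulated genes that they activate encode hydrophilic or membrane proteins that protect cells during freezing and dehydration. Several of these genes also respond to ABA through the ABA-responsive element (ABRE), whose core is ACGTG and which is bound by bZIP factors of the ABF group.

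The sequence before these genes is shown first because both elements were looked for there, though not every gene holds both. Bases are from RefSeq on build TAIR10.1, written 5′ to 3′ in the direction of the gene, with every match to CCGAC or ACGTG on either strand in capitals. The 3 stretches are the 250 bases before the RefSeq gene starts of RD29A (chr5:21240467-21240716, plus strand), COR15A (chr2:17712331-17712580, minus strand) and CBF2 (chr4:13016236-13016485, minus strand).
RD29A: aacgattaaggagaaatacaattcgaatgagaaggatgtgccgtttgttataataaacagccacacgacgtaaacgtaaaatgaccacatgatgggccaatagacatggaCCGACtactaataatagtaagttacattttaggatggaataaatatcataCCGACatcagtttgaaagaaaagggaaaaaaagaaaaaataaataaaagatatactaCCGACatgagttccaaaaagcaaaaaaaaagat
COR15A: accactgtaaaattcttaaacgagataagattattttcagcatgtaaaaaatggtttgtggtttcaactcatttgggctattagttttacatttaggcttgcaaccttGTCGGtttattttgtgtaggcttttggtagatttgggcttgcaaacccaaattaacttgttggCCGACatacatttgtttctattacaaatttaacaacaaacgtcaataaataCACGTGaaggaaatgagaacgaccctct
CBF2: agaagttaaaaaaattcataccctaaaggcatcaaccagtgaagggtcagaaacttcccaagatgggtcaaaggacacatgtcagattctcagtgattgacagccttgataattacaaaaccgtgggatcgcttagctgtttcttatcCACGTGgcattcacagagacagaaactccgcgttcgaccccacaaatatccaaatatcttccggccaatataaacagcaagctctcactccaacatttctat
RD29A shows 3 forward CCGAC cores and no ACGTG in this stretch. COR15A shows 1 reverse and 1 forward CCGAC core followed by the palindrome CACGTG, which holds ACGTG on both strands. CBF2 shows the palindrome CACGTG and no CCGAC.

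In the window from 250 bases before to 50 after the RefSeq gene start, CCGAC was found on either strand in 2 of the 9 genes, RD29A and COR15A, and in 15.0% of 27443 protein-coding genes. ACGTG was found in 5 of the 9, namely CBF2, COR15A, KIN1, KIN2 and COR413IM1, and in 26.7% of all. RefSeq starts lie far before the start codon in several of these genes, 364 bases in COR15A and 560 in COR15B. A window of 500 bases before the start codon, added after the data were seen, therefore held other counts. There CCGAC was found in 6 of the 9, all 6 targets and 0 of the 3 CBF genes, against 23.4% of all genes. ACGTG was found there in all 9, against 34.9% of all genes. No match says only that these letters are absent from the window, and a match is not a bound site.

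In the tandem copies 1 site of COR15A was similar to the site of COR15B, and the site of KIN1 to that of KIN2. The following 29-base stretches show these sites with the CCGAC core in capitals, and the site of COR413IM1 beside them. The position in each name is the first base of the core in the direction of the gene, counted back from the start codon. They lie at chr2:17712216-17712244 (COR15A, minus strand), chr2:17710122-17710150 (COR15B, minus strand), chr5:5209802-5209830 (KIN1, plus strand), chr5:5211769-5211797 (KIN2, plus strand) and chr1:10289909-10289937 (COR413IM1, shown on the plus strand, opposite to the gene).
COR15A site -266: acaatttcatggCCGACctgctttttttt
COR15B site -265: acaacttgatggCCGACctcttttttctt
KIN1 site -178: gataaatagctaCCGACataaggcaaaac
KIN2 site -185: aataaaaagctaCCGACataaggcaaaaa
COR413IM1 site -386: atttcattggtaCCGACataactaatttc
RD29A had 4 CCGAC cores in the longer window, at -352, -302, -245 and -208, COR15A had 2, and COR15B, KIN1, KIN2 and COR413IM1 had 1 each. KIN2 and COR413IM1 had 4 ACGTG sites each, COR15A and KIN1 had 3, CBF1 and COR15B had 2, and CBF2, CBF3 and RD29A had 1, with a palindrome counted once.

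**Figure D1:**
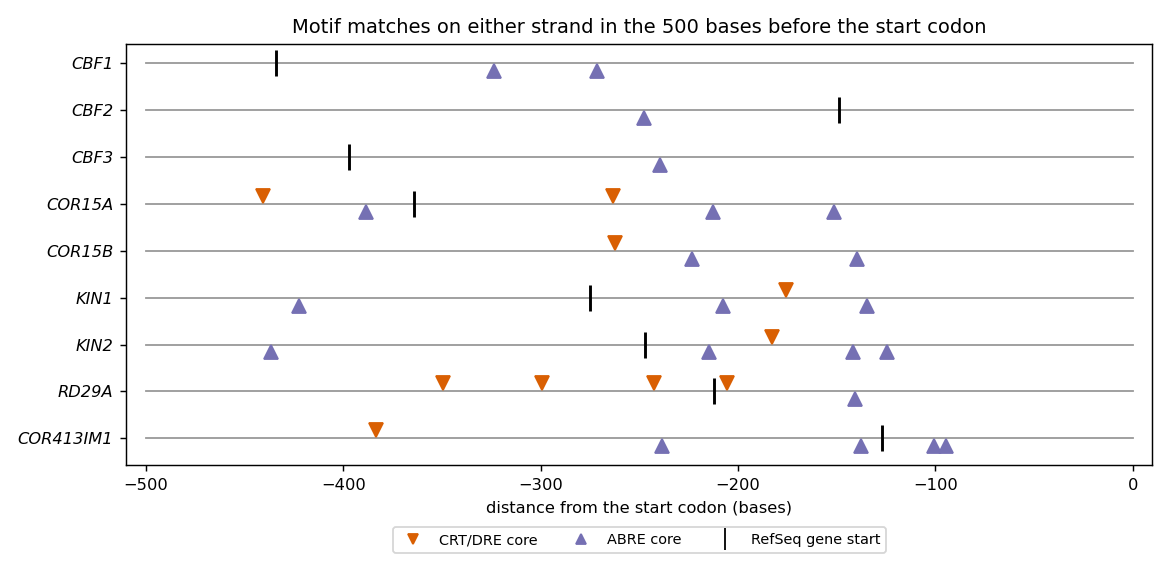
Matches to the CRT/DRE core and the ABRE core on either strand in the 500 bases before the start codon of the 9 genes, with the x axis in bases from the start codon, a downward triangle for a CRT/DRE core, an upward triangle for an ABRE core (a palindrome drawn once) and a bar for the RefSeq gene start, which in COR15B lies 560 bases out and is not drawn. CRT/DRE cores stand in the 6 targets and in none of the 3 CBF genes in this window, and RD29A has 4.

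The genes form tandem groups, which bears on how reads were assigned. CBF2, CBF3 and CBF1 lie in this order on chromosome 4, each a single exon, with 1774 bases between CBF2 and CBF3 and 2379 between CBF3 and CBF1. Their coding sequences share 85.0% to 86.7% of aligned bases, and the longest identical run is 68 bases, between CBF1 and CBF2. COR15A and COR15B adjoin on chromosome 2, with 82.6% coding identity and a longest run of 31 bases. KIN1 and KIN2 lie 892 bases apart on chromosome 5, with 95.02% coding identity, a longest run of 58 bases, and predicted proteins of 66 residues that are identical at 92.4% of positions. How the authors' counting treated reads that fit more than 1 copy is not given in the sources used here, so values within these groups are uncertain to that extent. RD29A and COR413IM1 have no such copy among the 9 genes. Genes outside the 9, such as COR413IM2 (AT1G29390), were not compared in sequence.

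All values below are the authors' group values in FPKM, which are mapped fragments scaled to transcript length and to the mapped total. There is 1 value per group, without an SD, and the depth is unknown. RBM25 itself, as a check of the labels, stood at 1.46 FPKM in rbm25-1 and 9.26 in WT with ABA, and at 2.55 FPKM in rbm25-1 and 9.15 in WT untreated.

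The 3 CBF transcripts were scarce in every group, and the targets spanned a wide range. Among CBF genes the group values ran between 2.99 and 3.16 FPKM in rbm25-1 with ABA and between 1.84 and 4.21 FPKM in WT with ABA. Untreated, CBF1 and CBF2 had 0.460 and 0.673 FPKM in rbm25-1, and the 3 genes had between 0.427 and 2.26 FPKM in WT. CBF3 has no entry in the table of untreated rbm25-1 against untreated WT, and its level there was not analysed here. Its 0.427 FPKM in untreated WT lies below 0.547 FPKM, the lowest value of a higher group in any entry. Among targets the values ran between 28.2 and 7887 FPKM in rbm25-1 with ABA and between 62.0 and 11260.4 FPKM in WT with ABA. In untreated seedlings they ran between 6.07 and 160.7 FPKM in rbm25-1 and between 6.31 and 224 FPKM in WT.

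KIN2, for a small hydrophilic protein of cold and ABA responses, led the targets after ABA. Among genes with 1 identifier, KIN2 had rank 3 of 18116 in rbm25-1 with ABA, rank 2 of 18637 in WT with ABA, rank 1293 of 18196 in untreated rbm25-1 and rank 1468 of 18637 in untreated WT. Its share of the summed FPKM of those genes was 0.976% in rbm25-1 with ABA, 1.36% in WT with ABA, 0.0132% in untreated rbm25-1 and 0.0119% in untreated WT. Without ABA the highest of the 9 was COR413IM1, a multispanning protein of the chloroplast inner envelope, at 160.7 FPKM in rbm25-1 and 224 in WT. The order of targets thus differed between treatments. With ABA it ran KIN2, KIN1, COR15A, COR413IM1, RD29A and COR15B in WT, and in rbm25-1 RD29A at 311 FPKM stood above COR413IM1 at 260.2. Without ABA it ran COR413IM1, KIN2, COR15B, COR15A, KIN1 and RD29A in WT. Whether neighbours in these orders differ beyond replicate spread cannot be told from 1 value per group.

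**Figure D2:**
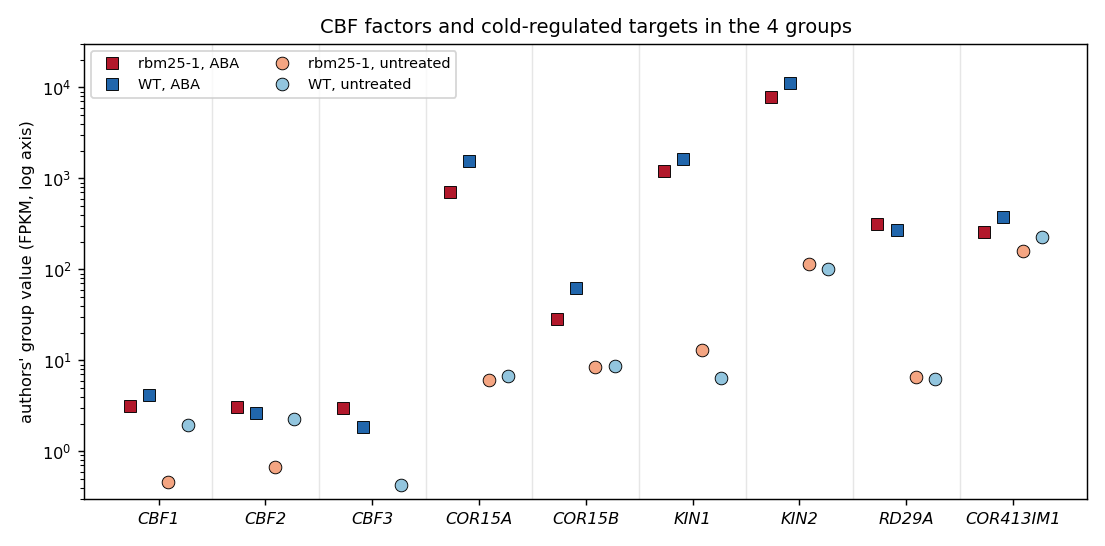
The authors' group value in FPKM (log axis) of the 9 genes, with squares for ABA, circles for untreated seedlings, reds for rbm25-1 and blues for WT, and 1 point per group of 3 samples without an error bar. KIN2 reaches 7887 FPKM in rbm25-1 and 11260.4 in WT with ABA, the 3 CBF genes stay at 4.21 FPKM or below, and CBF3 has no value for untreated rbm25-1.

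The first comparison asks how ABA changed these genes in WT seedlings at normal temperature. All 6 targets and 2 of 3 CBF genes rose at the authors' q under 0.05, where q is their p-value adjusted for many tests, and none of the 9 fell. No entry in any comparison has a higher group below 0.547 FPKM. CBF3, at 0.427 FPKM in untreated WT, therefore had its entry here only through its ABA value and could only rise. A q of 0.000132 in any comparison belongs to a Cuffdiff p of 5e-05, the lowest among the listed genes. Equal q values therefore do not rank these genes. Over all 19647 loci, 26% rose and 30.1% fell, and the median log2 fold change was 2.85 over the 9 genes against -0.07 over all genes with 1 identifier. The targets alone had a median of 6.11 on the log2 scale.

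Among targets, KIN1 had 1640.1 FPKM in WT with ABA and 6.45 in untreated WT, a 254-fold difference (log2 7.99, q = 0.000132 in the authors' deposited table). COR15A, which encodes a cryoprotective protein of the chloroplast stroma, had 1569.5 FPKM with ABA and 6.78 untreated (log2 7.86, q = 0.000132 in the authors' deposited table). KIN2 had 11260.4 FPKM with ABA and 101.8 untreated (log2 6.79, q = 0.000132 in the authors' deposited table). By size of rise these 3 ranked 24, 26 and 49 among 18492 genes.

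RD29A, for a hydrophilic protein whose promoter is widely used as a stress reporter, had 270.4 FPKM with ABA and 6.31 untreated (log2 5.42, q = 0.000132 in the authors' deposited table). COR15B, the tandem copy of COR15A, had 62.0 FPKM with ABA and 8.58 untreated (log2 2.85, q = 0.000132 in the authors' deposited table). The COR15 copies were thus near each other without the hormone and far apart with it, COR15A over COR15B being 25.3 in WT with ABA and 0.790 in untreated WT. COR413IM1 had the smallest rise of the targets, with 378 FPKM with ABA and 224 untreated (log2 0.75, q = 0.000132 in the authors' deposited table).

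CBF genes had smaller fold changes than 5 of the 6 targets. CBF1 had 4.21 FPKM in WT with ABA and 1.96 in untreated WT (log2 1.10, q = 0.000132 in the authors' deposited table). CBF3 had 1.84 FPKM with ABA and 0.427 untreated (log2 2.11, q = 0.0015 in the authors' deposited table), or 0.99 on the log2(FPKM + 1) scale. CBF2 had 2.61 FPKM with ABA and 2.26 untreated, which did not pass (log2 0.21, q = 0.474 in the authors' deposited table). CBF4 (AT5G51990), a relative described for drought and ABA responses, had 2.92 FPKM with ABA and 0.101 untreated without passing (log2 4.86, q = 0.253 in the authors' deposited table).

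The factors that bind the ABRE and the other genes of the cold response also moved with ABA in WT. For scale, 26% of all loci rose and 30.1% fell. Of 5 ABRE-binding factors 4 rose and 0 fell, led by ABI5 at log2 2.73, ABF3 at 2.07 and ABF2 at 2.03 in the authors' deposited table. Of 14 other cold-regulated genes with an entry of their own 10 rose and 2 fell. ERD10, a dehydrin, had log2 3.46, COR413PM1, a plasma membrane relative of COR413IM1, 2.73 and COR47, another dehydrin, 2.38 in the authors' deposited table. GOLS3, a galactinol synthase gene known for its CBF dependence in the cold, fell, with 0.335 FPKM with ABA and 0.824 untreated (log2 -1.30, q = 0.00811 in the authors' deposited table). Its value with ABA lay below 0.547 FPKM, so GOLS3 could only enter as a fall.

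Of 15 regulators of CBF genes 5 rose and 4 fell with ABA, where 26% of all loci rose and 30.1% fell. MYB15, a repressor of CBF genes, had log2 3.75, and OST1, an ABA-activated kinase that also acts on ICE1 in the cold, had 1.91 in the authors' deposited table. At 0.412 FPKM in untreated WT, MYB15 lay below 0.547 FPKM and could only enter as a rise. PIF4, a light-signalling factor that restrains CBF expression, fell by 0.97 on the log2 scale in the authors' deposited table. ICE1, the bHLH activator of CBF3, had 24.1 FPKM with ABA and 24.0 untreated (log2 0.01, q = 0.955 in the authors' deposited table).

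Spray and hormone cannot be told apart in this comparison, and the touch genes, which respond to mechanical contact, are given beside it. All 3 touch genes with an entry of their own rose, TCH3 at log2 1.63, LOX2 at 0.86 and TCH2 at 0.32 in the authors' deposited table. Among all loci 26% rose and 30.1% fell. Tissue markers also moved: all 6 root markers with an entry fell with ABA, with a median of -1.68 on the log2 scale, and all 4 leaf photosynthesis markers fell, with a median of -1.79. Of the root markers, HKT1 (0.386 FPKM with ABA, 2.73 untreated) and PLT1 (0.189 with ABA, 0.640 untreated) lay below 0.547 FPKM with ABA. No entry has a higher group below that level, so HKT1 and PLT1 could only enter as falls. Over the 4 root markers with a value in every group (CASP1, CASP4, SCR and SHR) the summed level was 40.4 FPKM with ABA and 103.1 untreated in WT. Over 4 leaf markers (RBCS1A, LHCB2.1, PSAD1 and RCA) it was 2338 FPKM with ABA and 7806 untreated, and no gene of either set was at 0 in any group. In bulk seedlings, fewer cells of a type and less RNA per cell cannot be told apart, and the part of either in these results was not tested.

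The second comparison asks what rbm25-1 changed without ABA. CBF1 and CBF2 fell to between 23.4% and 29.9% of WT, while 4 of the 6 targets were not called. Of the 8 genes with an entry 3 fell and 1 rose, against 7.2% of 19327 loci that fell and 6.15% that rose. The median log2 fold change was -0.09 over the 8 genes and -0.01 over all genes with 1 identifier.

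CBF1 had 0.460 FPKM in untreated rbm25-1 and 1.96 in untreated WT (log2 -2.09, q = 0.000255 in the authors' deposited table). CBF2 had 0.673 FPKM in untreated rbm25-1 and 2.26 in untreated WT (log2 -1.74, q = 0.000132 in the authors' deposited table). Counted from the strongest fall, they ranked 25 and 45 of 18236 genes. Both values are low, and the counts of reads behind them are unknown. The 0.460 FPKM of CBF1 in rbm25-1 lies below 0.547 FPKM, the lowest value of a higher group. Its entry thus rests on the WT value, and CBF1 could only fall. On the log2(FPKM + 1) scale the differences were -1.02 for CBF1 and -0.96 for CBF2.

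The targets showed no shared direction. KIN1 rose, with 12.9 FPKM in untreated rbm25-1 and 6.45 in untreated WT (log2 1.00, q = 0.000132 in the authors' deposited table). COR413IM1 fell, with 160.7 FPKM in untreated rbm25-1 and 224 in untreated WT (log2 -0.48, q = 0.000494 in the authors' deposited table). COR15A had 6.07 FPKM in untreated rbm25-1 and 6.78 in untreated WT (log2 -0.16, q = 0.478 in the authors' deposited table). COR15B, at 8.44 FPKM in rbm25-1 and 8.58 in WT, and RD29A, at 6.63 FPKM in rbm25-1 and 6.31 in WT, were not called either. KIN2 had 114.0 FPKM in rbm25-1 and 101.8 in WT and was not called (log2 0.16, q = 0.284 in the authors' deposited table). The ratio of KIN2 to KIN1 was 8.80 in untreated rbm25-1 and 15.8 in untreated WT, a pair whose reads may be hard to separate.

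First-wave transcription factors are induced alongside the CBF genes when plants are chilled. Of 13 in untreated rbm25-1, 6 fell, 0 rose and 7 were not called at the authors' q, and 4 fell when the p-values were adjusted within that table alone. Among all loci 7.2% fell and 6.15% rose at the authors' q. ZAT10, a zinc finger repressor, had 5.34 FPKM in rbm25-1 and 20.3 in WT (log2 -1.93, q = 0.000132 in the authors' deposited table). ERF5 had log2 -0.75, ERF6 -0.54 and RVE2, a MYB factor near the clock, -0.48 in the authors' deposited table. ZAT12 had 6.26 FPKM in rbm25-1 and 13.4 in WT without passing (log2 -1.09, q = 0.687 in the authors' deposited table).

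Touch genes fell in part, TCH2 with log2 -0.65 and LOX2 with -0.71, while TCH3 had 0.08 and was not called in the authors' deposited table. Among 14 regulators of CBF genes 2 rose and 0 fell, where 6.15% of all loci rose and 7.2% fell. SOC1, a flowering factor that represses CBF genes, had log2 0.44, and CAMTA3, a calmodulin-binding activator of CBF2, had 0.32 in the authors' deposited table, the CAMTA3 call being lost on adjustment within the table. Of 14 other cold-regulated genes RCI2A, for a small membrane protein, fell (log2 -0.37, q = 0.0132 in the authors' deposited table), a call that was also lost on that adjustment. Of 7 root markers with an entry here 1 rose and 1 fell. IRT1, the iron transporter of the root epidermis, had 3.04 FPKM in untreated rbm25-1 and 0.372 in untreated WT (log2 3.03, q = 0.000132 in the authors' deposited table). Its WT value lay below 0.547 FPKM, so IRT1 could only enter as a rise. CASP4, a Casparian strip gene, fell (log2 -0.65, q = 0.0255 in the authors' deposited table), but not on adjustment within the table. Summed levels were 99.5 FPKM in untreated rbm25-1 and 103.1 in untreated WT over the 4 root markers with a value in every group, which leave out IRT1, and 9646 FPKM in untreated rbm25-1 and 7806 in untreated WT over 4 leaf markers, of which LHCB2.1 (log2 1.22) and RCA (0.40) rose in the authors' deposited table, RCA not on adjustment within the table. Their part in the CBF values was not tested. None of 5 ABRE-binding factors was called by the authors' Cuffdiff q, with 0 of them at an unadjusted p under 0.05.

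**Figure D3:**
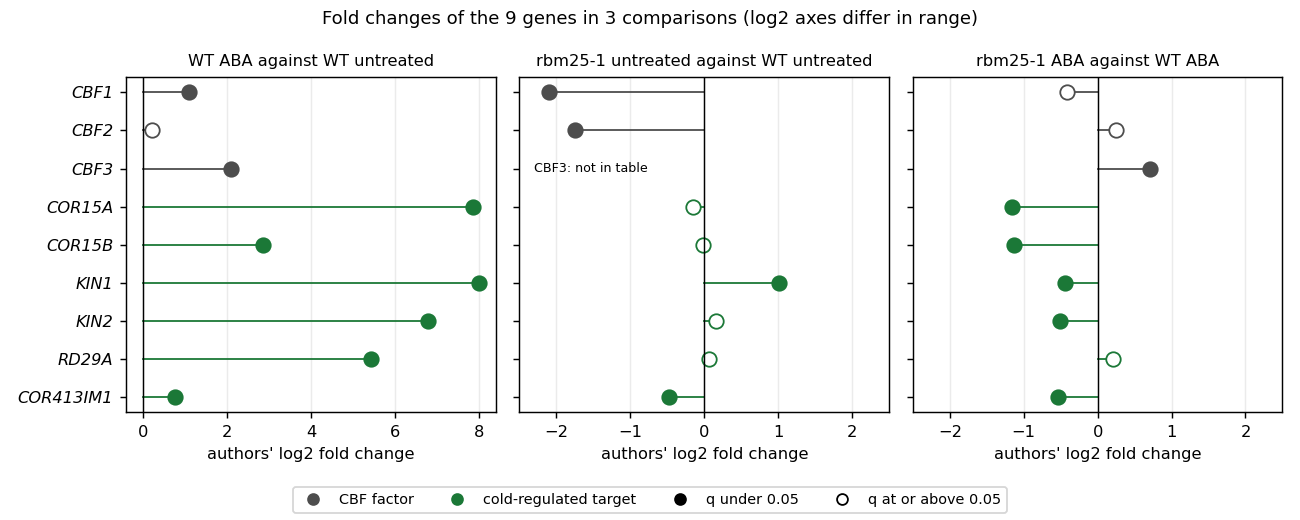
The authors' log2 fold change of each gene in 3 comparisons, with grey for CBF factors, green for targets, filled points for q under 0.05 and open points for q at or above it, on axes that differ in range. The rises of targets with ABA reach log2 7.99 (KIN1), CBF1 and CBF2 stand at -2.09 and -1.74 in untreated rbm25-1, and 5 of 6 targets are lower in rbm25-1 with ABA.

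The third comparison sets rbm25-1 against WT when both had ABA. Here 5 of 6 targets fell and none rose, while of the CBF genes CBF3 rose and the other two were not called. Over all 19244 loci 14.3% fell and 17.7% rose, and the median log2 fold change was -0.44 over the 9 genes, -0.53 over the targets and 0.03 over all genes with 1 identifier. Only COR15A and COR15B had calls of at least 2-fold.

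COR15A had 705 FPKM in rbm25-1 with ABA and 1569.5 in WT with ABA, 44.9% of the WT level (log2 -1.15, q = 0.000132 in the authors' deposited table). COR15B had 28.2 FPKM in rbm25-1 and 62.0 in WT, 45.6% of the WT level (log2 -1.13, q = 0.000132 in the authors' deposited table). The copies therefore kept their proportion, COR15A over COR15B being 25.0 in rbm25-1 and 25.3 in WT with ABA. COR15A ranked 281 and COR15B 294 of 18144 genes from the strongest fall.

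KIN2 had 7887 FPKM in rbm25-1 with ABA and 11260.4 in WT with ABA (log2 -0.51, q = 0.00516 in the authors' deposited table). KIN1 had 1213 FPKM in rbm25-1 and 1640.1 in WT (log2 -0.44, q = 0.0034 in the authors' deposited table). COR413IM1 had 260.2 FPKM in rbm25-1 and 378 in WT, 68.7% of the WT level, and 71.6% without ABA (log2 -0.54, q = 0.000132 in the authors' deposited table). RD29A was not called, with 311 FPKM in rbm25-1 and 270.4 in WT (log2 0.20, q = 0.22 in the authors' deposited table).

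CBF3 had 2.99 FPKM in rbm25-1 with ABA and 1.84 in WT with ABA (log2 0.70, q = 0.0122 in the authors' deposited table). CBF1 had 3.16 FPKM in rbm25-1 and 4.21 in WT (log2 -0.41, q = 0.0768 in the authors' deposited table). CBF2 had 3.08 FPKM in rbm25-1 and 2.61 in WT (log2 0.24, q = 0.362 in the authors' deposited table). CBF4 fell, with 1.56 FPKM in rbm25-1 and 2.92 in WT (log2 -0.91, q = 0.00895 in the authors' deposited table).

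Other cold-regulated genes included more falls than rises, 5 and 1 of 13, where 14.3% of all loci fell and 17.7% rose. The falls numbered 4 and the rises 1 on adjustment within the table. COR27 and COR28, which link cold and the clock, had log2 -0.96 and -0.52, and RCI2A had -0.52 in the authors' deposited table. ELIP1, an early light-induced protein of the thylakoid, was the rise, with 14.7 FPKM in rbm25-1 and 6.15 in WT with ABA (log2 1.26, q = 0.000132 in the authors' deposited table). COR413PM1, with 1860.0 FPKM in rbm25-1 and 1813 in WT, was not called (log2 0.04, q = 0.845 in the authors' deposited table). COR47 fell at the authors' q (log2 -0.37, q = 0.0287 in the authors' deposited table) and was lost on adjustment within the table.

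Of 15 regulators 2 rose and 1 fell with ABA, where 17.7% of all loci rose and 14.3% fell. STA1, a splicing factor needed for cold tolerance, had log2 0.50, ICE1 0.44 and OST1 -0.30 in the authors' deposited table, the call for OST1 being lost on adjustment within the table. First-wave factors moved both ways, with 4 rises and 2 falls of 13 at the authors' q, and 2 of each on adjustment within the table. ERF6 had log2 0.58, WRKY33 0.32, RVE2 -0.63 and ERF5 -0.38 in the authors' deposited table. Of 5 ABRE-binding factors ABF1 fell (log2 -0.42, q = 0.00554 in the authors' deposited table), while ABF3 had 70.8 FPKM in rbm25-1 and 59.8 in WT and was not called.

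Tissue markers moved with this comparison as well. All 4 leaf photosynthesis markers rose in rbm25-1 with ABA, with a median of 0.81 on the log2 scale, where 17.7% of all loci rose. Of 4 root markers with an entry 1 rose (0 on adjustment within the table), with a median of -0.08. The summed leaf markers stood at 3996 FPKM in rbm25-1 and 2338 in WT, and the summed root markers at 35.4 FPKM in rbm25-1 and 40.4 in WT. The part of tissue make-up in the lower COR15 and KIN levels was not tested.

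**Figure D4:**
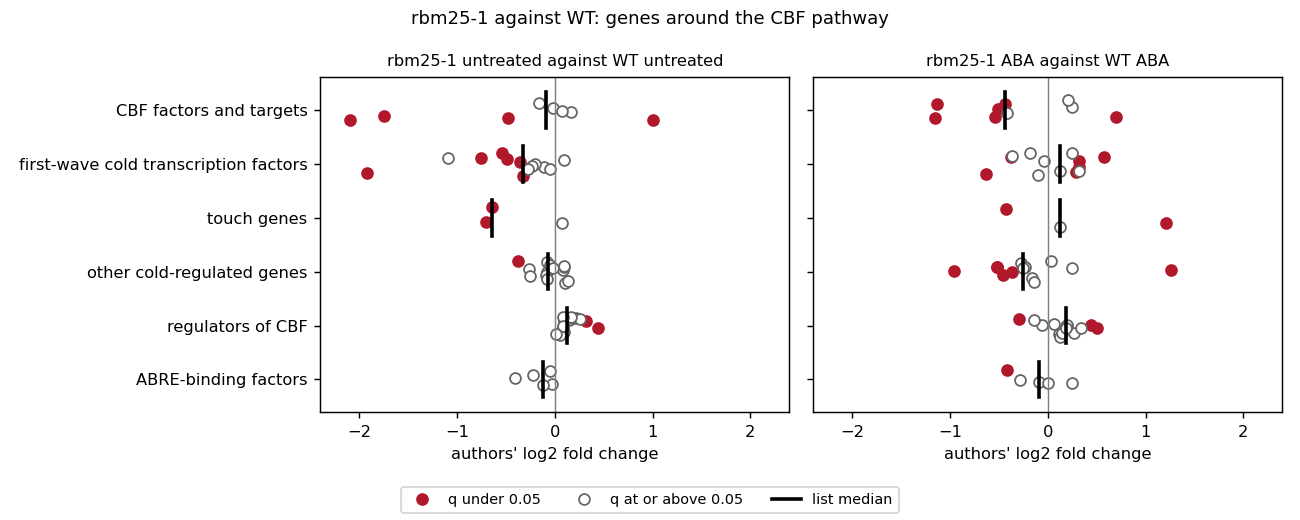
The authors' log2 fold changes of rbm25-1 against WT without ABA (left) and with ABA (right), 1 point per gene with an entry of its own, filled for q under 0.05, with a bar at the median of each list and points spread vertically for legibility. First-wave factors have a median of -0.33 without ABA and 0.13 with it, and the CBF factors and targets -0.09 and -0.44.

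The mutant with ABA was not set against the untreated mutant in the files used here, but WT values of the shared groups were equal in the tables for all 18051 genes found in both (untreated WT) and all 17971 (WT with ABA). The mutant's own ABA difference can therefore be given from its group values, without a test. The median log2 over 8 genes, without CBF3, was 4.17 in rbm25-1, and over all 17565 genes with both values it was -0.01. The WT median of 2.85 was over 9 genes with CBF3 and is not its counterpart. Over the same 6 targets the median was 5.83 in rbm25-1 and 6.11 in WT.

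The COR and KIN genes had smaller ABA differences in rbm25-1 than in WT, and CBF1 and CBF2 larger ones. COR15A differed 116-fold between ABA and untreated in rbm25-1 and 232-fold in WT. KIN1 differed 93.6-fold in rbm25-1 and 254-fold in WT, with its untreated level in rbm25-1 above that of WT. KIN2 differed 69.2-fold in rbm25-1 and 111-fold in WT, and COR15B 3.35-fold in rbm25-1 and 7.23-fold in WT. RD29A differed 47.0-fold in rbm25-1 and 42.8-fold in WT, and COR413IM1 1.62-fold in rbm25-1 and 1.69-fold in WT. CBF1 differed 6.88-fold in rbm25-1 and 2.15-fold in WT, and CBF2 4.58-fold in rbm25-1 and 1.16-fold in WT. On the log2(FPKM + 1) scale the differences in rbm25-1 were 1.51 for CBF1 and 1.29 for CBF2. With ABA, CBF1 and CBF2 of rbm25-1 thus lay near WT, whereas untreated they lay well below it. These differences between genotypes were not tested, since the tables hold no values per sample.

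**Figure D5:**
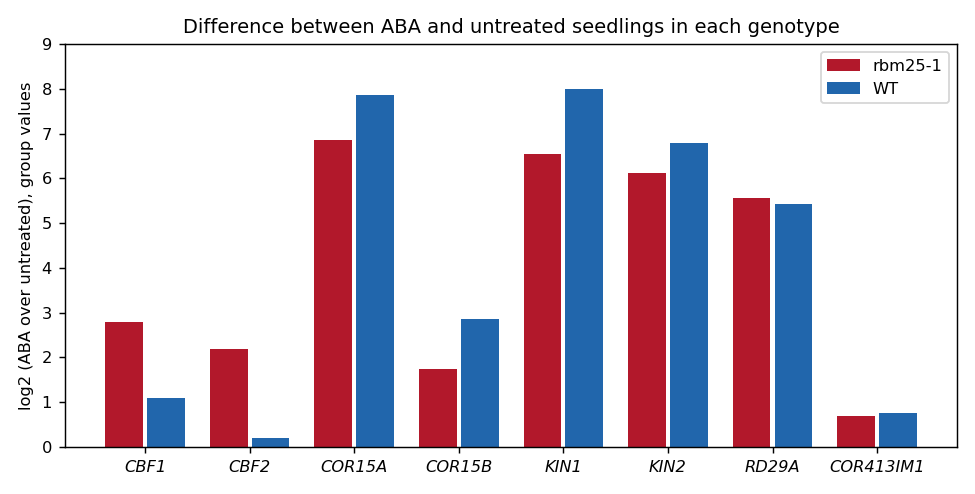
The log2 ratio of group values with ABA over untreated for 8 genes, red for rbm25-1 and blue for WT, computed from the authors' FPKM and without error bars or a test. CBF1 (2.78 in rbm25-1, 1.10 in WT) and CBF2 (2.19 and 0.21) are higher in rbm25-1, COR15A (6.86 and 7.86) and KIN1 (6.55 and 7.99) are lower, and CBF3 is left out for want of an untreated rbm25-1 value.

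The genes whose pattern over the 3 comparisons was nearest to these medians were looked up among 10650 genes with at least 10 FPKM in a group. The measure was the Euclidean distance over the 3 deposited log2 fold changes. Nearest to the median of CBF1 and CBF2 were RTFL12 (distance 0.452), AT4G27280 (0.583), XTH25 (0.632), AT3G12830 (0.952) and XTH15 (1.05). RTFL12, of the ROTUNDIFOLIA-like small peptides, had 14.7 FPKM in untreated rbm25-1 and 50.4 in untreated WT, and 108.7 FPKM in rbm25-1 and 105.4 in WT with ABA. XTH25 and XTH15 encode cell wall xyloglucan endotransglucosylase/hydrolases. Nearest to the median of the 6 targets were AT5G54165 (distance 0.198), the heat shock factor gene HSFA6B (0.20), AT2G41190 (0.514), AT1G71520 (0.569) and the kinase gene MAPKKK18 (0.585). HSFA6B had 32.0 FPKM in rbm25-1 and 45.7 in WT with ABA, and 0.821 FPKM in rbm25-1 and 0.730 in WT untreated.

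Splicing was read from the deposited percent spliced in (PSI), the share of an event's reads that support its inclusion form. Of the 9 genes only KIN1 and KIN2 had events, 1 event in each of the first 2 comparisons and 12 with ABA in both genotypes. The CBF genes have a single annotated exon, and COR15A, COR15B, RD29A and COR413IM1 have no event in these tables. After Benjamini-Hochberg adjustment of the deposited p-values within each table, 0 events of the 9 genes passed.

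KIN2 had an alternative first exon in all 3 tables, and in the first 2 its unadjusted p was under 0.05. The use of its own first intron (chr5:5212023-5212183) stood at 90.0% with ABA and 97.2% untreated in WT (p = 0.0104 unadjusted in the authors' deposited table). It stood at 92.05% in rbm25-1 and 97.2% in WT untreated (p = 0.00981 unadjusted in the authors' deposited table). With ABA it stood at 92.4% in rbm25-1 and 90.0% in WT (p = 0.207 unadjusted in the authors' deposited table). At unadjusted p under 0.05 the share of all events was 4.83% for WT with ABA against untreated, 6.13% for untreated rbm25-1 against WT and 6.4% with ABA. The WT value untreated is shared by the first 2 comparisons.

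Alternative forms of that event include introns that start in KIN1 and end at the second exon of KIN2. Among the 17 introns in the events of both genes, 4 join KIN1 to KIN2 and 1 is annotated in RefSeq. Only 7 of the 17 have GT-AG ends, against 96.6% to 96.7% of the introns of all deposited events. All 8 introns listed for KIN1 begin with GC inside its second exon, and none is annotated. With ABA, the largest PSI differences in KIN1 were at alternative acceptors, 76.8% in rbm25-1 and 52.3% in WT (p = 0.897 unadjusted in the authors' deposited table) and 10.2% in rbm25-1 and 32.4% in WT (p = 0.594 unadjusted in the authors' deposited table). A retained KIN1 intron had 37.8% in rbm25-1 and 28.6% in WT (p = 0.835 unadjusted in the authors' deposited table). Reads of the near-identical copies may align to either gene, and their part in these events was not tested.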

How the data were processed

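Polyadenylated RNA of bulked seedlings was sequenced from 12 samples in 4 groups. Per the submitters' processing notes, reads were processed on build TAIR10 with Cuffdiff (version not given), Cufflinks 2.2.1, TopHat2 2.0.13 and Trimmomatic 0.32. Per the file headers, the deposited gene tables hold the authors' FPKM per group, their log2 fold change (no pseudocount), p-value and q-value. The deposited splicing tables hold the authors' percent spliced in (PSI), the signed PSI difference and an unadjusted p as a score, from a program not given in the sources used here. Of the splicing events 33 (WT with ABA against untreated), 28 (untreated rbm25-1 against WT) and 28 (both with ABA) were damaged and left out. Cuffdiff's tables hold 1 value per group of 3 samples, so no replicate error, depth or test of replicates could be computed here. The lowest FPKM in the higher group was 0.547, so genes below that had been left out upstream.

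Here, a gene was called at the authors' q under 0.05, loci merging several genes stayed out of list counts, and splicing p-values were adjusted by Benjamini-Hochberg within a table. The wild-type groups serve as control in 2 tables each, so comparisons share values. Promoters and exons came from RefSeq TAIR10.1, on which 96.6% to 96.7% of deposited introns had GT-AG ends. All 9 genes matched by identifier. The members and gene lists were chosen with earlier results of these data known. All 9 genes are named, of other lists at most 4 genes per list and comparison among the strongest calls, beside values given for contrast and chosen after they were seen. Alternatives were adjustment within a table, q under 0.01, a 2-fold minimum, log2(FPKM + 1), centring on all genes and other promoter windows. Python packages were pandas 2.3.3, Biopython 1.88 and matplotlib 3.10.9. Only the p-value adjustment and the motif search were tested on simulated data.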

Additional observations from a re-analysis of the deposited data

How the results depend on the processing

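Calls of the single genes were the same under adjustment within a table. They were also the same under q below 0.01, except for CBF3 in rbm25-1 with ABA (log2 0.70), which no longer passed. Directions were the same under centring and log2(FPKM + 1). No q was recomputed on those scales, so they do not examine the calls. Sizes of scarce genes shrank with log2(FPKM + 1), to -1.02 (CBF1, from -2.09) and -0.96 (CBF2, from -1.74) in untreated rbm25-1 and to 0.99 (CBF3, from 2.11) in WT with ABA. Adjustment within a table changed counts of other lists by 1.5 times or more in rbm25-1 against WT: without ABA, 1 in place of 2 regulators rose, 0 in place of 1 other cold-regulated gene and 0 in place of 1 root marker fell, 4 in place of 6 first-wave factors fell and 1 in place of 2 leaf markers rose, and with ABA, 2 in place of 4 first-wave factors and 0 in place of 1 root marker rose and 0 in place of 1 regulator fell. With a 2-fold minimum 2 genes, COR15A and COR15B, were called in rbm25-1 against WT with ABA, against 6 without it. COR413IM1 was also lost with that minimum in WT with ABA (7 in place of 8 genes called) and in untreated rbm25-1 (3 in place of 4). The median over the 6 targets alone was 6.11 on the log2 scale for WT with ABA (2.85 over 9 genes) and 0.024 for untreated rbm25-1 against WT (-0.09 over 8 genes, the other sign). The median ABA difference of rbm25-1 over 8 genes, without CBF3, was 3.49 on the log2(FPKM + 1) scale and 4.17 without the pseudocount, which lowers the values of scarce genes. At an unadjusted p under 0.05, 1 KIN2 splicing event was called for WT with ABA and 1 for untreated rbm25-1, against 0 after adjustment. In the 500 bases before the start codon, chosen after seeing the data, 6 genes held CCGAC and 9 held ACGTG, against 2 and 5 around the gene start. No paired analysis was possible because the tables used here give group values alone, and leaving out replicates was not run for the same reason. The depth behind the low CBF values is unknown.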

Other observations

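The circadian clock gates CBF expression, and its genes are given here as values. In rbm25-1 with ABA 3 of 6 clock genes with an entry of their own rose against WT with ABA and none fell, where 17.7% of all loci rose and 14.3% fell. GI, which acts in clock and flowering, had 10.5 FPKM in rbm25-1 and 6.77 in WT (log2 0.63), and the pseudo-response regulators PRR5 and PRR7 had log2 0.62 and 0.46 in the authors' deposited table. Untreated, PRR7 rose, with 16.1 FPKM in rbm25-1 and 10.02 in WT (log2 0.69, q = 0.000132 in the authors' deposited table), and 6 other clock genes were not called. In WT with ABA, GI had log2 -1.32, PRR7 -0.77 and ELF4 0.88 in the authors' deposited table. The morning genes CCA1 and PRR9 have no entry in the 3 tables. The labels do not give the hour of harvest of each group.

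Among genes around the pathway, no splicing event of the lists passed after adjustment. The lowest unadjusted p of the ABRE-binding factors was at a first exon of ABF3, with 68.55% PSI in WT with ABA and 40.0% untreated (p = 0.00169 in the authors' deposited table). An acceptor of ABF1 had 44.8% PSI in rbm25-1 and 62.8% in WT with ABA (p = 0.0309 in the authors' deposited table). At a last exon of the dehydrin gene ERD10 the PSI was 91.5% in WT with ABA and 81.25% untreated (p = 0.000213 in the authors' deposited table). These were named after their values were seen.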
